A study of Oryza sativa with 12 samples.

Results

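The sites of chromosome 3 at which the parents of the hybrid rice Xieyou9308 differ fell into 2 unlike portions. Over its higher-numbered end the male parent R9308 nearly always had the base of the Nipponbare reference, while before it the 2 parents had it about equally often. The sites were chosen from the deposited SNP calls by their transcript identifier, which begins with Os03t, and by the parental calls. Each parent had to show 1 base, unchanged between the stages, and the bases of the parents had to differ. This gave 3412 sites in 1181 loci, out of 29935 such sites on all chromosomes, of which 26523 lie on the other chromosomes. Since the choice used the parental bases only, the allele reads of the hybrid were not part of it.

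Roots were sampled at heading and at tillering from Xieyou9308, an F1 hybrid, from its male parent R9308, a restorer line, and from its female parent Xieqingzao B, an indica maternal line. The study describes R9308 as carrying a part of japonica ancestry. Seedlings of the 3 genotypes were raised in a field and then moved to floating foam in a nutrient pool, and 2 roots of each genotype were taken per stage for RNA sequencing, 12 samples in all. The authors pooled the 2 roots, so that the table holds 6 columns of calls and no spread between replicates. All intervals and tests therefore leave out the variation between roots. The exact tests and the intervals of read shares cover counting error only, and reads copied by PCR are not independent molecules. Intervals of medians and of shares of sites treat linked sites as independent.

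The reference base (REF) is that of Nipponbare, a japonica cultivar. Indica and japonica are the main subspecies groups of cultivated rice, and japonica ancestry has been bred into indica restorer lines, so that stretches of one chromosome can stand closer to or farther from Nipponbare. In an F1 hybrid both parental copies of a gene lie in the same nuclei, and the share of reads that carries the allele of 1 parent compares the expression of the copies in shared conditions. An unequal share is called allelic bias.

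At the sites of chromosome 3, 143646 reads at heading and 154698 reads at tillering supported the called pairs of bases in the hybrid. The columns of R9308 held 192578 reads at heading and 272011 at tillering, and those of Xieqingzao B held 205477 and 174040. The median depth per site ranged from 29 reads in R9308 at heading to 47 reads in R9308 at tillering. All the parental columns reached 10 reads and a quality score of 20 at 2074 of the 3412 sites.

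R9308 had the REF base at 2895 of the 3412 sites, or 84.8% (Wilson 95% interval 83.6% to 86.0%), and Xieqingzao B at 516. At 1 site neither parent had it. On the other chromosomes together R9308 had the REF base at 76.2% of the sites (75.6% to 76.7%), with a range from 58.2% on chromosome 11 to 94.1% on chromosome 9. Chromosome 3 was the fifth of the 12 chromosomes in this share and the first in number of sites, with chromosome 7 next at 3407. Relative to the 2893 loci with any row of the table it had 117.9 sites per 100 loci, against 126.3 on the other chromosomes. The number of sites per locus was uneven. A single site was found in 443 loci, the median was 2, and the highest was 36 in Os03t0840500, all with the REF base in R9308. Sites of 1 transcript are linked, and in 120 loci more than 1 transcript isoform was listed, so that a base can be counted in several isoforms. For that reason no test was made over sites.

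A second class of sites was not used in the choice. At 3604 sites of chromosome 3 the parents shared a base at heading and tillering that was not the REF base. These shared non-REF sites made up 51.4% of shared and differing sites together, against 59.6% on the other chromosomes. They show where both parents stand apart from Nipponbare in the same way.

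When the sites were ordered by locus number and divided into windows of 10000 numbers, the change was found at the window that begins with Os03t0421100. By single loci the turn came at Os03t0419200, the last member locus of the window before. From Os03t0421100 to the last locus with a row, Os03t0862150, R9308 had the REF base at 2471 of 2504 sites (98.7%) and Xieqingzao B at 33. Before Os03t0421100, R9308 had it at 424 of 908 sites (46.7%) and Xieqingzao B at 483. The density was 195.2 sites per 100 loci in the R9308 REF portion and 56.4 per 100 loci before it. The shared non-REF share ran the other way, with 19.6% in the R9308 REF portion and 76.7% before it. The portion covers 36 consecutive windows, 4 of them with too few sites to class. Counting only R9308 REF and sparse windows, it is the longest such run of any chromosome, and the next was 22 windows on chromosome 4 and 21 on chromosome 6. Window numbers 46 to 54 held no transcript of the table and were passed over.

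**Figure D1:**
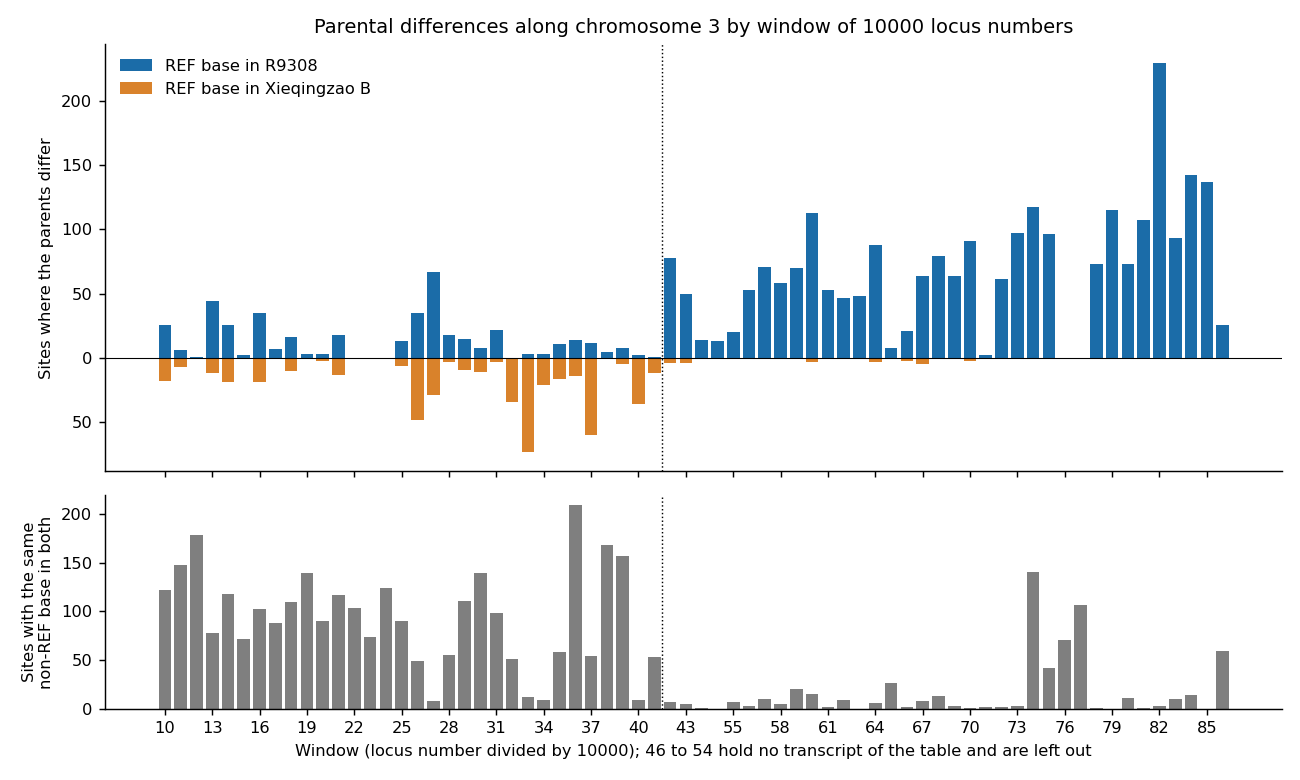
Member sites of chromosome 3 per window of 10000 locus numbers (upper panel), with sites whose REF base is in R9308 above zero and sites whose REF base is in Xieqingzao B below zero, and sites with the same non-REF base in both parents (lower panel). The dotted line marks the edge of the window that begins with Os03t0421100, after which 2471 of 2504 sites have the REF base in R9308.

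A window with at least 10 sites was called R9308 REF or Xieqingzao B REF when 80% of them had the REF base in that parent, and mixed otherwise. Fewer than 10 sites made it sparse. Of the 68 windows with a row, 34 (50%) were R9308 REF, 6 (8.82%) Xieqingzao B REF, 15 mixed and 13 sparse. On the other chromosomes, 32.8% of 588 windows were R9308 REF and 3.06% Xieqingzao B REF. R9308 REF windows held 206.7 sites per 100 loci and Xieqingzao B REF windows 115.2, while mixed windows held 69.3 and sparse windows 5.94. The shared non-REF share was 18.0% in R9308 REF windows, 42.2% in Xieqingzao B REF windows, 73.6% in mixed and 97.2% in sparse windows. The sparse windows were thus not poor in calls. They held 1244 shared non-REF sites beside 36 sites at which the parents differ. Closest to the 80% limit were window 28 with 85.7% R9308 REF inside it, window 13 with 78.6% outside it, and window 37 with 16.7% on the Xieqingzao B side.

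Neighbouring windows of 1 class formed 27 blocks, 7 of them with 3 or more windows. The longest R9308 REF block ran over 14 windows from Os03t0421100 to Os03t0649450, with 793 sites, 776 of them R9308 REF. Its locus with most sites was Os03t0606200, with 24. The block from Os03t0660700 to Os03t0708800 held 330 sites, 319 of them R9308 REF, and was led by Os03t0673800 with 20 sites. The block from Os03t0720300 to Os03t0759700 held 375 sites, 371 of them R9308 REF, and was led by Os03t0738100 with 15. The last block, from Os03t0781200 to Os03t0862150, held 996 sites, of which 995 were R9308 REF. It was the densest, with 242.9 sites per 100 loci, and its window 82 alone held 229 sites. In these 4 blocks no window fell under 91.3% R9308 REF.

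The 33 sites of the R9308 REF portion with the REF base in Xieqingzao B lay in 23 loci. Os03t0426350 had 4 of them and no site of the other kind, Os03t0436500 had 4 of its 5 sites and Os03t0609400 had 3 of 3. In most of the other loci a single such site stood beside R9308 REF sites of the same locus, as in Os03t0679300 with 1 of 14. None of the 33 lay after Os03t0830200.

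The only Xieqingzao B REF block of 3 windows ran from Os03t0320000 to Os03t0349200. It held 134 sites, 128 with the REF base in Xieqingzao B and 6 in R9308, and the locus with most sites was Os03t0340900, with 8. Its density was 108.1 sites per 100 loci and its shared non-REF share 35.0%. Windows 37, 40 and 41 were of the same class, with 60 of 72, 36 of 38 and 12 of 13 sites. The turn to R9308 REF was sharp. The last Xieqingzao B REF locus before it was Os03t0411600, the next member locus Os03t0419200 had its 1 site with the REF base in R9308, and the 16 loci from Os03t0419200 to Os03t0425800 held 53 sites that were all R9308 REF.

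The mixed block from Os03t0250000 to Os03t0279900 held 198 sites, 115 R9308 REF and 83 Xieqingzao B REF. Up to Os03t0265800 both kinds lay among each other, also within loci, as in Os03t0259700 with 5 and 1. R9308 REF sites were the more frequent in this stretch, with 13 of 19 in window 25. Runs of 10 or more consecutive member loci whose sites mostly point to the same parent resolved the rest of the block. This measure was added after the windows had been seen. From Os03t0266200 to Os03t0275300, 28 loci held 67 sites, of which 66 were Xieqingzao B REF, and no shared non-REF site was found in the 43 loci with a row. Directly after it, from Os03t0275900 to Os03t0287100, 25 loci held 80 sites, of which 77 were R9308 REF. Os03t0278300, the locus with most sites of the block, lay in the second run with 10 of 11 sites R9308 REF. There were 19 such runs, 6 of them Xieqingzao B REF and 13 R9308 REF. All 6 Xieqingzao B REF runs ended by Os03t0411600, and the largest of them by sites was Os03t0367900 to Os03t0376800 with 69 of 75. Before Os03t0419200 the R9308 REF runs were 2, that from Os03t0275900 and one of 10 loci from Os03t0136800 to Os03t0140200, in which all 31 sites were R9308 REF.

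Long stretches held no site at which the parents differed by the rule used, though rows that failed the rule were not compared. The longest ran over 169 loci with a row, from Os03t0218100 to Os03t0255500, and held 392 shared non-REF sites in 116 loci, among 1396 rows. The windows 22 to 24 inside it formed a sparse block with 0 member sites. The second ran over 118 loci from Os03t0758000 to Os03t0781501, inside the R9308 REF portion. It held 218 shared non-REF sites in 70 loci, among 772 rows. It lay between 2 long R9308 REF blocks, and member sites on both of its edges, in Os03t0757900 and Os03t0782900, were R9308 REF. Elsewhere in the R9308 REF portion shared non-REF sites were few and mostly gathered in single loci. Of 140 in window 74, Os03t0743800 held 139, and of 59 in window 86, Os03t0860700 held 50.

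The kinds of base change were alike in both classes of site. Transitions made up 67.3% of the R9308 REF sites (Wilson 95% interval 65.5% to 68.9%) and 67.1% of the Xieqingzao B REF sites (62.9% to 71.0%), and 65.4% of the sites of other chromosomes.

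In the hybrid both parental bases were called at 2484 sites at heading and at 2471 at tillering. The R9308 base alone was called at 115 sites at heading and 118 at tillering, and the Xieqingzao B base alone at 103 and 106. No call was given at 710 and 717 sites. The parental depth at these was lower than at sites with both bases, with a median of 24 reads in R9308 and 28 in Xieqingzao B at heading, against 35 and 42, and of 44 and 22 at tillering, against 52 and 35. The share of sites with both bases was 72.8% at heading and 72.4% at tillering, against 67.8% and 67.9% on the other chromosomes. Allele shares were taken at sites with both bases and 44 or more hybrid reads, since smaller read pairs in the table can stand in exchanged order. With 13 to 31 REF reads and 1 to 12 other reads there were 3 pairs at heading and 1 at tillering, while the mirror image had 392 and 384. The minimum left 1024 sites in 475 loci at heading and 1055 sites in 527 loci at tillering.

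The median R9308 allele share over all these sites was 52.0% at heading and 52.3% at tillering, against 52.6% and 52.2% on the other chromosomes. The share went with the parent that has the REF base. At R9308 REF sites the median was 52.7% at heading (874 sites, 95% order-statistic interval 52.0% to 53.6%) and 53.3% at tillering (917 sites, 52.3% to 54.2%). At Xieqingzao B REF sites it was 47.3% at heading (150 sites, 45.6% to 49.2%) and 46.6% at tillering (138 sites, 44.2% to 48.1%). Thus the REF allele was above 50% on both sides, with a median REF allele share of 52.7% at heading and 53.3% at tillering, and 54.0% and 53.9% on the other chromosomes. The reads were mapped to Nipponbare, so the part of mapping in this difference and that of expression cannot be told apart.

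The same split was seen inside mixed windows, which hold both kinds of site, in part in the separate runs of loci described above. There the median was 52.1% at heading and 52.8% at tillering at R9308 REF sites, and 47.0% and 46.8% at Xieqingzao B REF sites. Accordingly the R9308 REF portion had a median share of 52.8% at heading and 53.4% at tillering, while before it, with both kinds in near balance, the median was 50% at each stage. R9308 REF sites alone differed little between the portions, with 52.8% in the R9308 REF portion and 52.1% before it at heading, and 53.4% and 53.0% at tillering. The covered Xieqingzao B REF sites of the R9308 REF portion had medians of 52.5% at heading (10 sites, 47.3% to 59.4%) and 53.5% at tillering (5 sites). Before the portion such sites had 47.0% (45.1% to 48.9%) and 46.4%. The sites inside it were too few to tell whether they depart from the split.

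**Figure D2:**
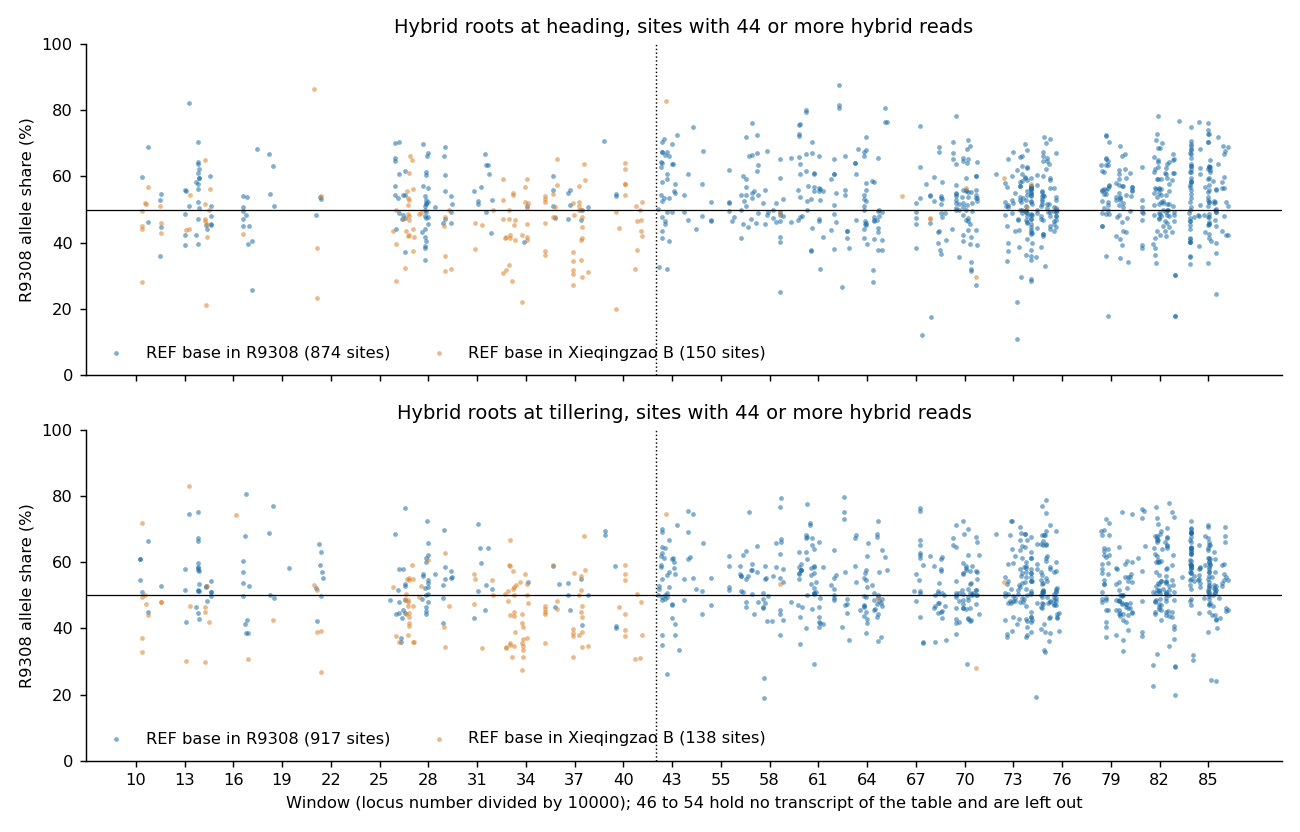
R9308 allele share of hybrid reads (percent) at each site of chromosome 3 with 44 or more hybrid reads, in the order of locus numbers, at heading (upper panel) and at tillering (lower panel). Blue points have the REF base in R9308, with medians of 52.7% and 53.3%, and orange points in Xieqingzao B, with medians of 47.3% and 46.6%.

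Among the long blocks the median R9308 allele share was highest in the last one, Os03t0781200 to Os03t0862150, with 54.0% at heading (280 sites, interval 52.3% to 55.9%) and 54.4% at tillering (310 sites, 53.0% to 55.7%). The block from Os03t0421100 followed with 53.3% and 53.5%, that from Os03t0660700 with 52.1% and 50.8%, and that from Os03t0720300 with 51.2% and 51.7%. The intervals of neighbours in this order overlapped at both stages, and they treat linked sites as independent. The blocks were therefore not ranked, and neither overlap nor separation of these intervals is a test. The Xieqingzao B REF block from Os03t0320000 had the lowest median, 45.6% at heading (31 sites, 41.6% to 50.5%) and 44.6% at tillering (38 sites, 37.0% to 50.4%). Its interval lay below that of the last block at both stages, but these blocks have opposite REF parents. As a share of the REF allele the median was 53.1% at heading and 55.4% at tillering in the Xieqingzao B REF block. In the last block it was 54.0% and 54.4%. Over summed reads the R9308 allele share of the Xieqingzao B REF block was 40.3% and 39.9%, because a few deeply covered loci of this block had low shares. The mixed block from Os03t0250000 lay between, with 49.1% and 48.9%.

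Single loci departed further from equality than any block. Each locus was tested at its best covered site with both bases and 44 or more reads at both stages, by an exact two-sided binomial test of a share of 0.5. P-values were adjusted by Benjamini and Hochberg over the 2408 loci of all chromosomes that could be tested, of which 388 lie on chromosome 3. At heading 74 of the 388 were called (19.1%), against 23.5% of all tested loci. At tillering 85 were called (21.9%), against 22% of all. At heading 56 loci were biased towards R9308 and 18 towards Xieqingzao B, or 14.4% and 4.64%, against 15.9% and 7.6% of all. At tillering 59 were biased towards R9308 and 26 towards Xieqingzao B, or 15.2% and 6.70%, against 14.8% and 7.23% of all. These shares lay near or below the background, so that chromosome 3 did not stand out in the number of biased loci.

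The direction again went with the REF base. Of the 326 loci tested at an R9308 REF site, 52 were biased towards R9308 and 9 towards Xieqingzao B at heading (18.3% and 5.05% of all such loci), and 58 and 14 at tillering (17.1% and 5% of all). Of the 62 tested at a Xieqingzao B REF site, 4 were biased towards R9308 and 9 towards Xieqingzao B at heading (5.97% and 18.1% of all), and 1 and 12 at tillering (5.12% and 16.4% of all). When the expected share was set to the genome-wide median of the same REF parent instead of 0.5, 39 loci at heading and 41 at tillering were biased towards R9308, and 34 and 35 towards Xieqingzao B. Of all tested loci 11.3% and 11.1% were then biased towards R9308, and 10.5% and 9.72% towards Xieqingzao B. Sites of 1 transcript also varied beyond counting error, with an overdispersion of 0.0156 at heading and 0.0152 at tillering. A beta-binomial test with that spread called 4 loci towards R9308 and 3 towards Xieqingzao B at heading, and 2 and 2 at tillering. Over all tested loci that test called 1.29% and 1.12% at heading, and 0.872% in each direction at tillering.

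The lowest p towards Xieqingzao B at each stage belonged to a deeply covered locus of its REF block, while lower shares were found elsewhere. Os03t0327600-01, at A1313G, had 237 R9308 and 507 Xieqingzao B reads at heading and 748 and 1439 at tillering. Here and below a token such as A1313G gives the REF base, the position counted from 1 at the start of the transcript, and the other base. The R9308 allele share was 31.9% (Wilson 95% interval 28.6% to 35.3%) at heading and 34.2% (32.2% to 36.2%) at tillering, with adjusted exact binomial p of 1.7e-20 and 1.1e-46. Its second covered site, A1481T, lay on the same side with 41.8% at heading and 34.4% at tillering.

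Os03t0331700-02, at T1911G, had 161 R9308 and 404 Xieqingzao B reads at heading and 187 and 407 at tillering, or 28.5% and 31.5% (adjusted exact p = 1.0e-21 and 4.7e-17). Os03t0337900-01, at A1738G, had 29 and 103 reads at heading and 100 and 266 at tillering, or 22.0% and 27.3% (adjusted exact p = 5.5e-09 and 5.6e-16). These 3 loci lie within a little over 10000 locus numbers. The other covered site of Os03t0337900-01, C1004T, was nearer to equality with 42.2% and 41.7%, so that the share of this transcript depends on the site. Outside the block, Os03t0407000-01 at C1119T had 122 and 260 reads at heading and 155 and 348 at tillering, or 31.9% and 30.8%. Os03t0369000-01 lay below 50% at the 4 sites covered at both stages, from 27.2% to 37.2% at heading and from 31.4% to 39.7% at tillering, and had 30.5% at a site covered at heading only. At all of these sites the REF base is that of Xieqingzao B. With the spread between sites allowed for, the beta-binomial test still called Os03t0337900-01 at both stages (adjusted p = 0.0207 at heading and 0.0360 at tillering) and Os03t0331700-02 at heading (adjusted p = 0.0400, and 0.105 at tillering). It called none of the others at either stage, with adjusted p of 0.0991 and 0.176 for Os03t0327600-01, 0.127 and 0.0896 for Os03t0407000-01, and 0.145 and 0.592 for Os03t0369000-01.

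Bias towards Xieqingzao B at R9308 REF sites runs against the side of the REF base. The clearest case was Os03t0829200-01, described in the study as similar to soluble epoxide hydrolase, an enzyme class that opens epoxide rings with water. At A564G it had 34 R9308 and 155 Xieqingzao B reads at heading and 20 and 50 at tillering, or 18.0% (13.2% to 24.1%) and 28.6% (19.3% to 40.1%), with adjusted exact p of 4.7e-17 and 0.0036. A525G gave 17.9% and 28.3%. It was also called at heading by the beta-binomial test (adjusted p = 0.0022), but not at tillering (adjusted p = 0.20). Os03t0744200-01, at A853G, had 21 and 38 reads at heading (35.6%, adjusted exact p = 0.12) and 13 and 54 at tillering (19.4%, adjusted exact p = 1.0e-05, and 0.0345 by the beta-binomial test). Os03t0168900-01, at C528G, had 46 and 70 reads at heading (39.7%, adjusted exact p = 0.11) and 176 and 279 at tillering (38.7%, adjusted exact p = 2.8e-05). Its share was alike at both stages, and only the deeper column passed the exact test, while the beta-binomial test called neither (adjusted p = 0.668 and 0.519).

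Among the loci named for bias towards R9308, Os03t0672700-01, at G386A, had 79 R9308 and 26 Xieqingzao B reads at heading and 119 and 37 at tillering, or 75.2% (66.2% to 82.5%) and 76.3% (69.0% to 82.3%). Its adjusted exact p was 5.9e-06 at heading and 2.3e-09 at tillering, and it passed the beta-binomial test at both stages (adjusted p = 0.0495 and 0.0327). Its sites at G183T and G204T had lower shares, 53.5% and 63.0% at heading, so that the share was higher at later positions. Os03t0432900-01, described in the study as a hypothetical protein, had 131 and 50 reads at C736T at heading and 94 and 38 at tillering, or 72.4% and 71.2% (adjusted exact p = 7.7e-08 and 2.3e-05), and was not called by the beta-binomial test (adjusted p = 0.0586 and 0.113).

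Os03t0737300-01 was above 50% at the 3 sites covered at both stages, from 59.6% to 69.7% at heading and from 64.4% to 68.6% at tillering, and at 49.7% at a site covered at heading only. Os03t0849800-01 was above 50% at the 5 sites covered at both stages, but 3 neighbouring ones, at 849, 917 and 927, had 51.0% to 55.3% at heading, and those at 966 and 999 had 70.3% and 70.5%. Its sites covered at heading only ranged from 33.9% to 76.2%. In Os03t0726400-01 C454T and C586T had 50.7% and 51.3% at heading, while T1825G had 65.2%. In such transcripts the call rested on part of the sites. Os03t0850900-01 was even, with 61.2% to 65.0% at its 3 sites at heading and 59.1% to 61.1% at tillering. At T522C it had 439 and 278 reads at heading (adjusted exact p = 9.9e-08), and 175 and 121 at tillering (adjusted exact p = 0.013). None of these 4 loci was called by the beta-binomial test at either stage, with adjusted p from 0.0863 to 0.717.

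Other loci passed the test more strongly at 1 stage. Os03t0845000-01, at G159A, had 312 R9308 and 187 Xieqingzao B reads at heading (62.5%, adjusted exact p = 8.8e-07) and 49 and 35 at tillering (58.3%, adjusted exact p = 0.35). Os03t0818400-01, at T804C, had 65 and 56 reads at heading (53.7%, adjusted exact p = 0.69) and 378 and 193 at tillering (66.2%, adjusted exact p = 1.4e-12). Its other site covered at both stages, G874A, had 72.9% at heading and 73.5% at tillering, with 35 and 13 reads at heading. At the tested site the tillering column held fewer reads in Os03t0845000-01, and the heading column in Os03t0818400-01. Os03t0265600-01 had 61.8% at heading and 76.5% at tillering, Os03t0279400-02 had 66.1% and 72.4%, and Os03t0851100-01 had 63.0% and 65.1%, all called at both stages. Of the loci in this paragraph, the beta-binomial test called Os03t0265600-01 at tillering (adjusted p = 0.0360) and no other. Os03t0375900-01, at A1871G, was biased towards R9308 although the REF base is that of Xieqingzao B, with 63.6% at heading and 67.8% at tillering (adjusted exact p = 0.0065 and 8.9e-07).

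**Figure D3:**
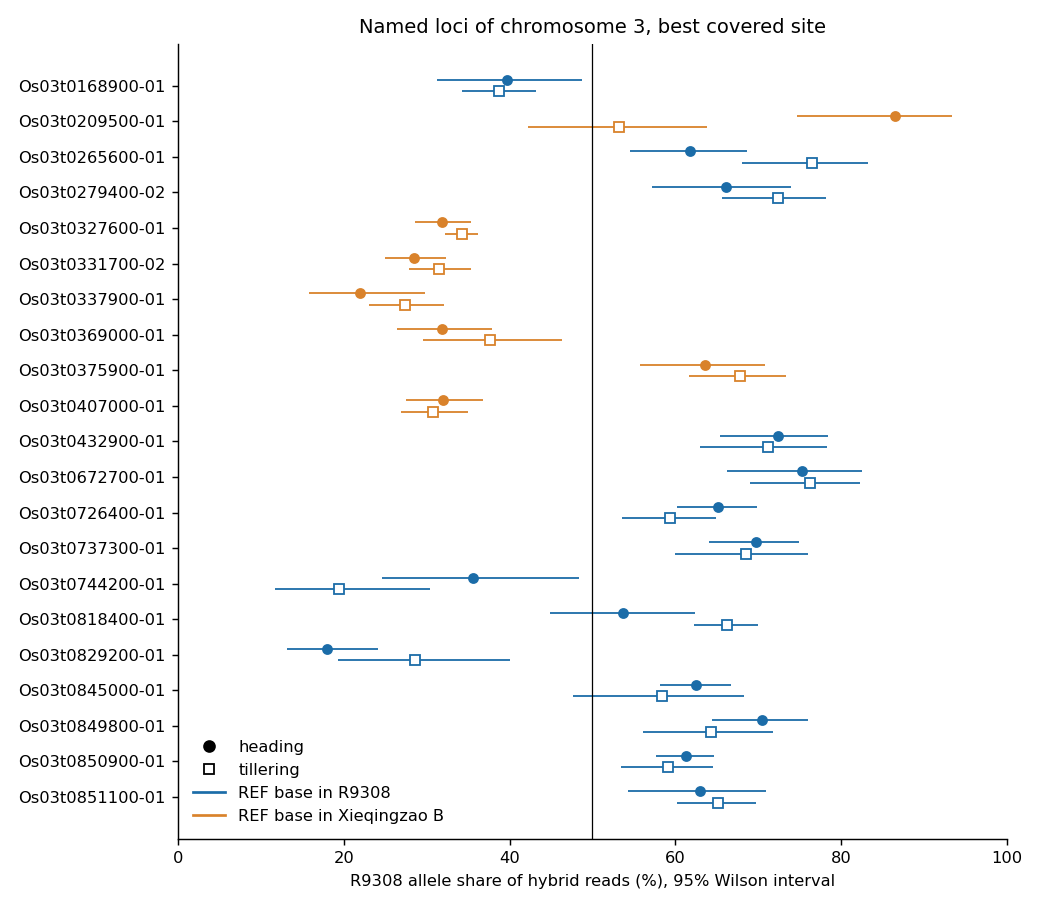
R9308 allele share of hybrid reads (percent, with Wilson 95% intervals) at the best covered site of 21 named loci of chromosome 3, at heading (filled circles) and tillering (open squares), blue where R9308 has the REF base and orange where Xieqingzao B has it. Only Os03t0209500-01, with 86.5% at heading and 53.2% at tillering, differed between the stages by the test.

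The stages gave similar shares at most loci. Of the 388 loci, 114 were called at 1 stage or both and 45 at both, and all 45 were biased towards the same allele, 35 towards R9308 and 10 towards Xieqingzao B. Another 29 were called at heading only and 40 at tillering only, and in 57 of these 69 the share lay on the same side of 50% at the other stage. Of all tested loci 33.5% were called at 1 stage or both, 12% at both, 11.5% at heading only and 10% at tillering only. On the other chromosomes 243 of 244 loci called at both stages kept the allele, and 372 of 449 called at 1 stage kept the side, so that neither was particular to chromosome 3. The median difference in share between the stages, without its sign, was 5.41 percentage points. By Fisher's exact test of heading against tillering, adjusted over the 2408 loci, 1 locus of chromosome 3 differed, against 0.54% of all tested loci. At an unadjusted exact p under 0.05 there were 40 (10.3%), against 194 of 2020 (9.60%) on the other chromosomes. A call at 1 stage was therefore not in itself a difference between stages.

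That locus was Os03t0209500-01, at T906C, with 45 R9308 and 7 Xieqingzao B reads at heading and 42 and 37 reads at tillering. The share was 86.5% (74.7% to 93.3%) at heading and 53.2% (42.3% to 63.8%) at tillering (Fisher's exact test, adjusted p = 0.024). In the parents R9308 had 110 reads at heading and 108 at tillering, and Xieqingzao B 20 and 13, so that the parental depths were unequal at both stages. The result compares 2 pooled columns and rests on 1 site. When reads were summed over the sites of a transcript 11 of 388 loci differed, against 4.11% of all 2408 tested. With a minimum of 20 reads 15 of 601 did, against 2.53% of all 3910 tested. This locus was among them in both cases, but on the same reads of the same site, so that neither is a further check. With a minimum of 100 reads Os03t0209500-01 could not be tested, and Os03t0786900-01 was called instead.

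**Figure D4:**
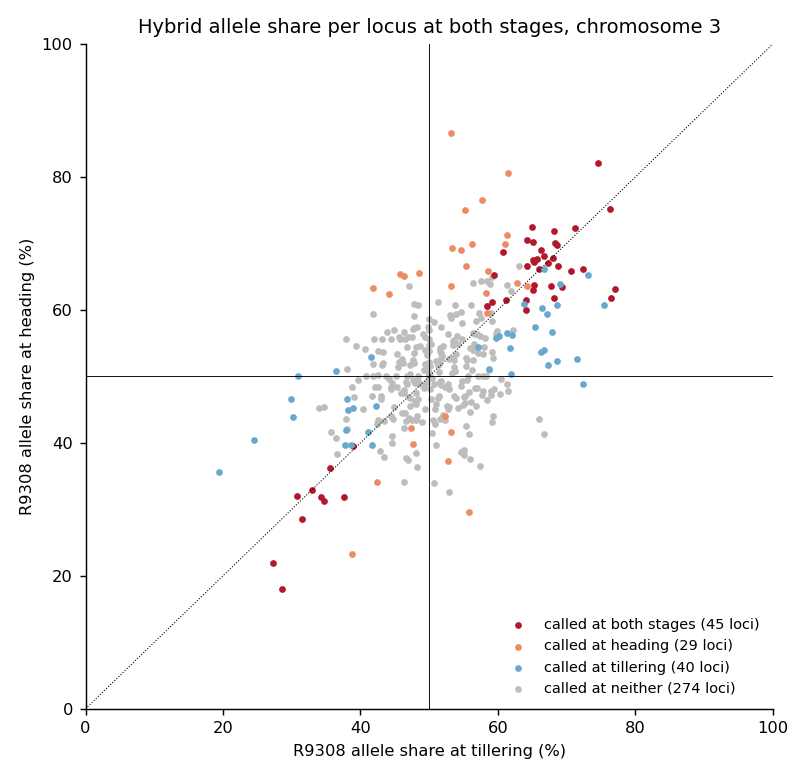
R9308 allele share (percent) at heading (vertical axis) and tillering (horizontal axis) for the 388 tested loci of chromosome 3, coloured by the stages at which the binomial test called them. The 45 loci called at both stages lie in the upper right (35) and lower left (10) corners of the plot.

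Parental depth at the same sites, which the choice of sites did not use, mostly lay on the side of the hybrid bias. Each parental column was scaled to its total over the 29935 sites. Of the 56 loci biased towards R9308 at heading, 52 had the higher scaled depth in R9308, and of the 59 at tillering, 49. Of the 18 biased towards Xieqingzao B at heading, 15 had the higher scaled depth in Xieqingzao B, and of the 26 at tillering, 25. Among loci with no call, R9308 was higher in 132 of 314 at heading and in 87 of 303 at tillering. In Os03t0829200-01 the scaled R9308 share of the parental reads was 17.1% at heading and 23.9% at tillering, close to the share in the hybrid. In Os03t0327600-01 it was 25.7% and 30.1%. Os03t0369000-01 was an exception, with 58.1% at heading and 26.7% at tillering beside hybrid shares of 31.9% and 37.6%. Of the loci biased towards R9308, 52 at heading and 58 at tillering were tested at R9308 REF sites, and the part of the REF base in this was not tested.

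A single parental base with 44 or more hybrid reads at both stages was rare. It was found at 4 of 762 sites with such depth (0.525%, Wilson 95% interval 0.204% to 1.34%), against 0.410% on the other chromosomes. All 4 showed the Xieqingzao B base only, at sites where R9308 has the REF base. On the other chromosomes 15 of 19 such sites also showed the Xieqingzao B base only, all 15 at R9308 REF sites. Of the 4 sites of chromosome 3, 2 lay in Os03t0829200, with 86 to 113 reads at heading and 50 to 68 at tillering. The other covered sites of this locus were also low for R9308. The other 2 lay at positions 28 and 44 of transcripts of Os03t0606200, with 46 to 64 reads at heading and 109 to 152 at tillering. In both loci the R9308 parent had reads at these sites, 49 to 81 at heading in Os03t0606200 and 28 to 38 in Os03t0829200. The 1 site of Os03t0606200 with both bases and enough reads had a share of 44.4% at heading and 46.0% at tillering. The single-base calls thus did not extend to this site, which is 1 of the 24 of the locus.

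Loci with many sites showed how far sites of the same gene go together. Os03t0839100 had 29 sites, all R9308 REF, and the share was above 50% at 15 of 15 covered sites at heading, with a median of 63.9%, and at 25 of 26 at tillering, with a median of 63.9%. Os03t0850400, with 22 sites, was above 50% at 9 of 16 at heading and 15 of 19 at tillering, with shares from 41.5% to 72.9% at heading. Os03t0829100 had a median of 49.4% at heading over 5 covered sites, and Os03t0829200, the next member locus, had 24.1% over 4. Neighbouring loci of the same block could thus lie far apart. Os03t0840500, with the most sites of all, had no covered site at heading and 1 at tillering, at 30.4%. Os03t0673800, with 20 sites, had 1 covered site at heading, at 12.2%, and none at tillering.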

How the data were processed

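The authors trimmed the reads, pooled those of each pair of roots, mapped them to the Nipponbare reference with RSEM and called SNPs. The submitters' processing notes name CASAVA 1.8 and SAMtools 0.1.16. The deposited table gives for 249857 sites, and for each of 6 pooled columns, the called bases, the deposited counts of supporting reads and a quality score as the authors' caller wrote it, before any depth or quality filter. No transcript has coordinates or a gene name in the table.

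Windows had 10000 locus numbers, a class needed 80% of at least 10 sites, and windows without a row were skipped. Shares used sites with both parental bases and 44 or more hybrid reads. One site per locus, the best covered, entered exact binomial and Fisher tests, adjusted by Benjamini and Hochberg over all chromosomes at 0.05. Intervals are Wilson 95% intervals, and medians have order-statistic intervals. Loci named for bias are the 6 with the lowest p in each direction at each stage, beside the locus with most sites in each block of 3 or more windows, called stage differences, loci with single-base sites and 2 loci the study annotates. Loci with 20 or more sites and runs of 10 or more loci were added after their values were seen. The sites and lists were chosen with earlier results of these data known. Besides the 24 alternatives planned, 1 was added. The tests were tried on simulated reads. The scripts used scipy 1.17.1, pandas 2.3.3, numpy 2.4.6 and matplotlib 3.10.9 under Python 3.11.15.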

Additional observations from a re-analysis of the deposited data

Results flagged for a closer look

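Os03t0209500-01, at T906C, differed between the stages in its R9308 allele share by the test of the difference itself. The share was 33.4 percentage points higher at heading, with 45 R9308 and 7 Xieqingzao B reads, than at tillering, with 42 and 37 reads (Fisher's exact test, adjusted p = 0.024). It was the only such locus of the 388 tested on chromosome 3 and rests on 1 site in reads pooled over roots.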

How the results depend on the processing

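No paired analysis was possible because the reads of the roots were pooled before the calls and the columns carry no replicate. For the same reason no replicate could be left out. The counts of sites in R9308 REF, Xieqingzao B REF and mixed windows (2540, 257 and 579) stayed within 1.5 times of these values under most window settings. Windows of 5000 numbers left 366 sites mixed, and windows of 20000 numbers or a window share of 90% left 161 sites in Xieqingzao B REF windows. Sites with 10 or more parental reads and quality 20 alone gave 1621, 137 and 252, with fewer sites by construction. The share of sites with the REF base in R9308 was 86.6% over those sites and 83.6% when every locus counted once.

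With 20 or more hybrid reads the median share at R9308 REF sites was 49.5% at heading and 50% at tillering, and at Xieqingzao B REF sites 50% at both, so that the difference by REF parent was no longer seen. That minimum lets in pairs below 44 reads, which can stand in exchanged order. With 100 or more reads the heading median at Xieqingzao B REF sites was 44.3% over 44 sites. The other alternatives kept all 4 medians within their intervals.

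Counts of biased loci depended most on the spread allowed between sites. The beta-binomial test called 4 loci towards R9308 and 3 towards Xieqingzao B at heading, and 2 and 2 at tillering. Against the median share of the REF parent, 34 loci were called towards Xieqingzao B at heading. With 100 or more reads 32 loci were called towards R9308 at heading and 37 at tillering, of 154 tested. Of all 925 loci tested in that way, 22.2% and 21.5% were called. With 20 or more reads 34 of 601 were called towards Xieqingzao B at heading, against 6.83% of all 3910 tested. Loci that differed between the stages were 15 of 601 with 20 or more reads, against 2.53% of all tested. With reads summed over the transcript they were 11 of 388, against 4.11% of all tested. Depth limits the reach of these counts, since 388 of the 1181 loci had 44 or more reads with both bases at both stages.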
